A study of Homo sapiens with 20 samples.

Results

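DEAD box (DDX) and DEAH box (DHX) RNA helicases were followed through the induction of the transcription factor EVI1 in human U937T cells. The members were the genes whose symbol in the annotation of the HG-U133 Plus 2.0 array starts with DDX or DHX and a digit. DDX10, DDX18, DDX21, DDX58, DDX60, pseudogenes and antisense genes were left out by the same rule. This gave 50 genes, against 19775 genes with a probe set of their own in the whole series. Of the 50, 48 had at least 1 probe set that carried their symbol alone, and 45 of these passed the intensity filter and were tested among 17860 genes. DDX39B and DDX47 were represented only by probe sets shared with other symbols and were not analysed here. The germ cell helicases DDX4, DDX43 and DDX53 did not reach a mean log2 intensity of 3 in every line and time point required, so they were not tested.

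DEAD and DEAH box proteins are enzymes that bind RNA and use ATP to open short duplexes or to strip proteins from RNA. Their names come from the amino acids of a conserved motif, and members act in ribosome assembly, splicing, mRNA export, translation, mRNA decay, mitochondrial RNA metabolism and the recognition of viral RNA. Growing leukemia cells make ribosomes at a high rate, and the helicases of the nucleolus remodel the precursor of ribosomal RNA.

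All arrays came from derivatives of U937, an established human myeloid leukemia line of monocytic type. U937T_EVI1-HA clones E10 and E14 carry an HA-tagged EVI1 cDNA that tetracycline (tet) keeps off, and EVI1 comes on when tet is withdrawn. RNA from these clones was taken at 4 times, 6, 12, 24 and 48 h after the change of medium with or without tet, which gave 16 arrays. U937T_vec clone P2, with an empty vector, and parental U937T cells were harvested after 48 h with or without tet and gave 4 arrays. All 4 lines were grown in puromycin, and E10, E14 and P2 also in hygromycin. Each line, time point and condition was hybridized once, and each construct was represented by single clones. E10 and E14 therefore served as replicates of each other (n = 2), as did P2 and U937T (n = 2). The p-values rest on the spread left within these pairs once the mean level of each line is removed. This spread was pooled over all arrays and times, with 8 residual degrees of freedom. A fit without P2 or without U937T kept 7 of the 8. The spread thus came mostly from E10 and E14, also for the p-values of the control lines. No p-value measures the variation between repeat cultures of a line. The values are log2 intensities from Robust Multi-array Analysis, and every change below is the log2 intensity without tet minus that with tet. A change was called when its adjusted p in limma was under 0.05. In bulk RNA on a common scale, a lower level of 1 RNA per cell cannot be told apart from a smaller share of it in the total.

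MECOM, the gene of EVI1, was read first as a check of the labels. Its brightest probe set lay between 7.06 and 7.34 in E10 and E14 with tet. Without tet it was at 8.52, 9.52, 9.64 and 10.51 in E10 and at 8.63, 9.92, 9.60 and 9.98 in E14 after 6, 12, 24 and 48 h. The control lines were at 5.91 to 6.90. The monocytic genes LYZ, SPI1, ITGB2, PTPRC and CD4 were read at 8.85 to 12.89 on the 20 arrays, whereas MPO was low at 4.43 to 5.33. Of these, ITGB2 (1.61), PTPRC (1.32) and CD4 (0.66) rose in E10 and E14 at 48 h, and ITGB2 (0.96) and PTPRC (0.82) also rose in the control lines. ITGB2 rose further in E10 and E14 than in the control lines, by 0.65 (limma adjusted p = 0.041). The mean log2 intensity of 11 markers of lymphoid, erythroid, epithelial and fibroblast cells was 5.12 to 5.14 in E10 and E14 without tet at 48 h and 5.01 to 5.13 with tet. Among the 10 of these that were tested, CD3E (1.17) and CD79A (0.43) rose in E10 and E14 at 48 h and none fell. CD3E also rose further than in the control lines, by 0.89 (limma adjusted p = 0.0059), and CD79A did not pass that test (0.40, adjusted p = 0.23). CD79A lay at 7.53 to 8.41 on the 20 arrays, well above the mean of the 11 markers. The part of these marker changes, monocytic ones included, in the results below was not tested.

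After 48 h without tet, 23 of the 45 helicases fell in E10 and E14 and 3 rose. The nucleolar helicases DHX37 and DHX33 fell most, by 1.34 and 1.33 on the log2 scale, and DDX60L, DDX6 and DDX17 rose. Over all genes tested, 14.7% were called lower and 16% higher in this comparison, against 51.1% and 6.67% of the helicases. The median change was -0.30 for the helicases and -0.04 for all genes. The decrease was already present at 24 h, when 15 helicases fell and none rose, whereas 9.16% of all genes fell and 7.97% rose. At an unadjusted p under 0.05 in limma, 2 helicases were higher at 24 h, beside 2395 of 17860 genes. The median change at 24 h was -0.19 for the helicases and 0.01 for all genes. In fits without E10 or without E14, which had 1 residual degree of freedom, 8 helicases were called lower at 48 h and none higher, and 5 (without E10) or 2 (without E14) were called lower at 24 h.

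Tet withdrawal alone also lowered helicases. In P2 and U937T, which received no EVI1, 10 of 45 helicases fell after 48 h and none rose in limma, and 2 were higher at an unadjusted p under 0.05. Over all genes, 5.3% were called lower and 5.41% higher in the control lines, and 1987 of 17860 were higher at the unadjusted threshold. The 10 helicases were DHX37, DHX33, DDX51, DDX54, DDX31, DDX28, DDX56, DDX55, DDX19A and DDX41, and each of them also fell in E10 and E14. The median change of the helicases in the control lines was -0.16, with -0.02 for all genes. The 4 named by size were DHX37 (-0.63, SE 0.09, limma adjusted p = 0.00072), DHX33 (-0.60, SE 0.11, adjusted p = 0.0029), DDX51 (-0.53, SE 0.16, adjusted p = 0.046) and DDX54 (-0.51, SE 0.11, adjusted p = 0.0097). Without P2 the count in the control lines was 3, without U937T it was 2, and without E10 or without E14 it was 1.

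To set the response to EVI1 apart from that to tet withdrawal, the change in E10 and E14 was compared with that in P2 and U937T. By this test 4 helicases fell further in the EVI1 clones, namely DHX33, DHX37, DDX19A and DDX56, and none rose further, with none higher at an unadjusted p under 0.05 in limma either. Of all genes tested, 3.03% were called lower and 2.43% higher in this comparison, against 8.89% and 0% of the helicases. At the unadjusted threshold, 1606 of 17860 genes were higher. The median difference was -0.10 for the helicases and -0.004 for all genes. In 20 of 45 helicases the changes of both EVI1 clones lay below those of both control lines, and in 7 of 45 they lay above. Over all genes tested, the changes lay below in 22.9% and above in 22.8%.

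**Figure D1:**
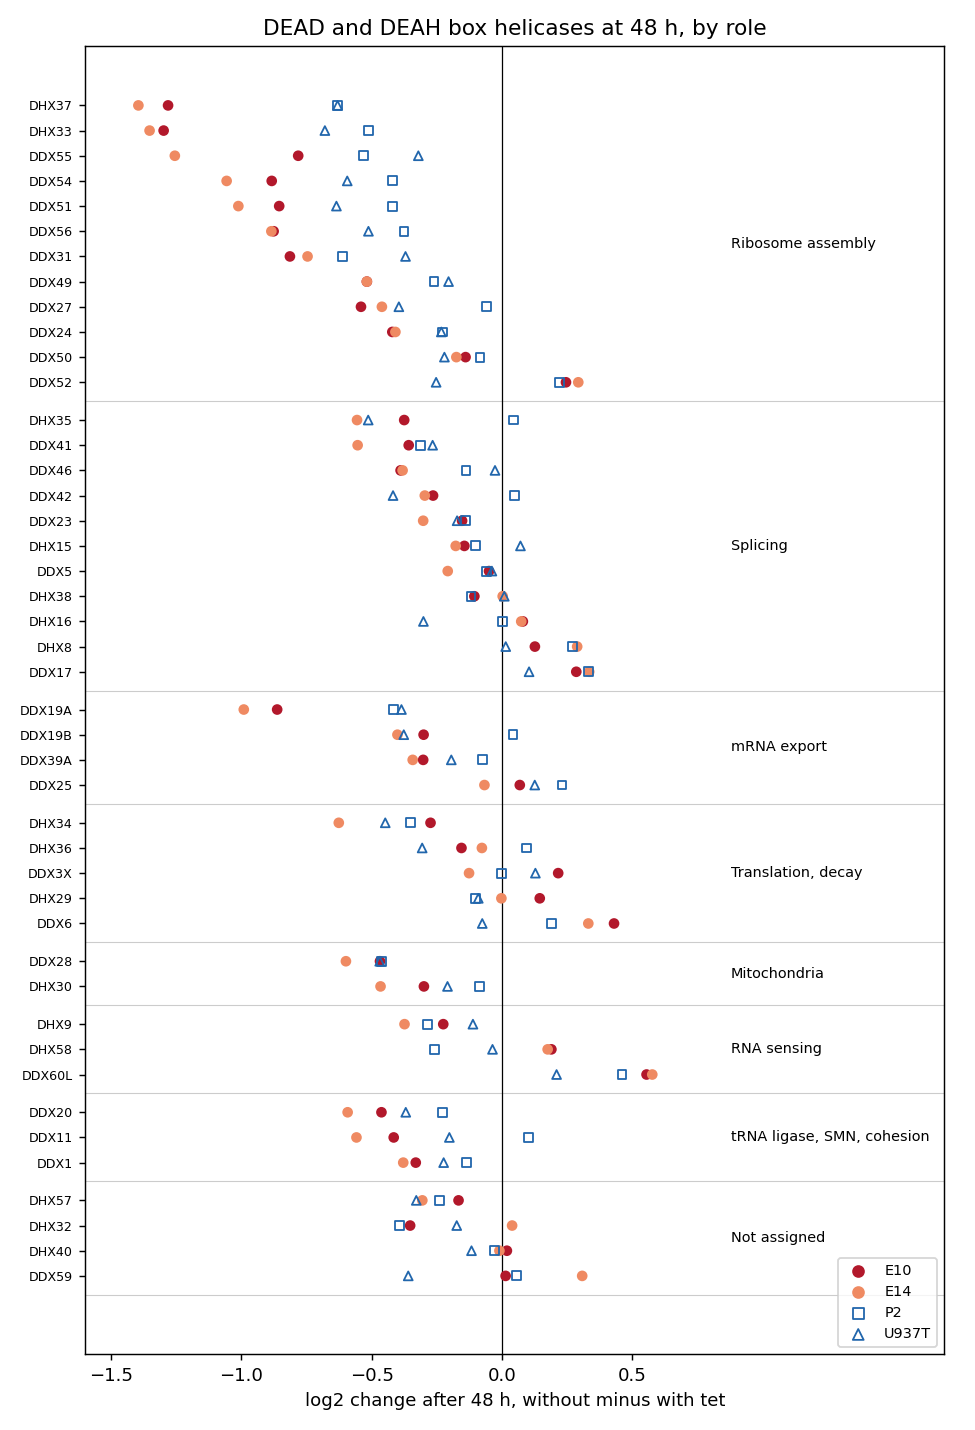
Log2 change after 48 h without minus with tet (horizontal axis) for the tested helicases except DDX3Y, grouped by role, with filled circles for the EVI1 clones E10 and E14, open squares for P2 and open triangles for U937T (1 pair of arrays per symbol). The upper 7 nucleolar helicases and DDX19A lie farthest to the left, and the control lines sit to the left of 0 as well but closer to it.

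The largest decreases belonged to the helicases of ribosome assembly. Of the 12 tested, 8 fell at 24 h and 10 at 48 h in E10 and E14. In the control lines 7 fell, and 3 fell further in E10 and E14 than in the control lines. Over all genes tested, 9.16% fell at 24 h and 14.7% at 48 h in E10 and E14. In the control lines 5.3% of all genes fell, and 3.03% fell further in E10 and E14. The median change of the 12 was -0.70 at 24 h and -0.83 at 48 h in E10 and E14, and -0.44 in P2 and U937T. For all genes these medians were 0.01, -0.04 and -0.02. The 2 that passed no test at 48 h were DDX50 (-0.16) and DDX52 (0.27). Of the 3 other probe sets of DDX52, 1 was called higher in E10 and E14 at 48 h in a fit over all probe sets.

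DHX33 is a DEAH box helicase of the nucleolus that takes part in the transcription of ribosomal RNA genes. In E10 it was read with and without tet at 10.05 and 10.49 after 6 h, 11.11 and 10.85 after 12 h, 11.01 and 9.71 after 24 h, and 11.06 and 9.76 after 48 h. In E14 the same pairs were 10.32 and 10.59, 11.27 and 10.75, 11.14 and 9.95, and 11.05 and 9.70. In P2 it was at 11.05 with and 10.53 without tet after 48 h, and in U937T at 11.11 and 10.43. At 24 and 48 h both EVI1 clones without tet lay below every array with tet at those times, and at 48 h also below both control lines without tet. DHX33 fell 2.37-fold at 24 h (limma adjusted p = 4e-06) and 2.51-fold at 48 h (adjusted p = 3.8e-07). The decrease exceeded that of the control lines by -0.73 (95% interval -1.05 to -0.41, adjusted p = 0.011).

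DHX37 is required for the small ribosomal subunit, where it helps to release the U3 small nucleolar RNA from the precursor. In E10 it was at 8.75 with and 8.70 without tet after 6 h, 8.95 and 8.74 after 12 h, 8.96 and 7.83 after 24 h, and 8.63 and 7.35 after 48 h. In E14 the pairs were 8.64 and 8.69, 9.12 and 8.75, 9.06 and 7.83, and 8.78 and 7.38. In P2 it fell from 8.75 to 8.12 and in U937T from 8.69 to 8.06. The clones were at nearly the same level without tet at 24 and 48 h, and no EVI1 array without tet at 48 h reached a control array. The decrease was 2.27-fold at 24 h and 2.53-fold at 48 h (limma adjusted p = 8.2e-08), and it exceeded the control lines by -0.71 (95% interval -0.98 to -0.43, adjusted p = 0.0052).

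DDX56 acts in the assembly of the large ribosomal subunit. It was read in E10 with and without tet at 10.12 and 10.06 after 6 h, 10.24 and 10.00 after 12 h, 10.21 and 9.42 after 24 h, and 9.90 and 9.02 after 48 h. In E14 the pairs were 10.17 and 10.19, 10.37 and 10.12, 10.24 and 9.52, and 9.93 and 9.05. The control arrays were at 9.77 with and 9.39 without tet in P2, and at 9.71 and 9.20 in U937T. Both EVI1 clones without tet at 48 h lay below both control lines, and the cultures with tet were also lower at 48 than at 24 h. DDX56 fell 1.84-fold at 48 h (limma adjusted p = 1.7e-06) and exceeded the control lines by -0.44 (95% interval -0.69 to -0.18, adjusted p = 0.046).

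DDX19A, outside the nucleolar group, is a helicase of the nuclear pore that helps to release mRNA into the cytoplasm. It stood between 9.71 and 9.80 on all 8 arrays of E10 and E14 with tet. Without tet it was at 9.72, 9.57, 9.19 and 8.87 in E10 and at 9.59, 9.70, 9.18 and 8.75 in E14 after 6, 12, 24 and 48 h. P2 and U937T were both at 9.63 with tet and at 9.21 and 9.24 without tet. Without tet at 48 h, E10 and E14 thus lay below P2 and U937T by more than the distance between the 2 lines of either kind. The decrease was 1.90-fold at 48 h (limma adjusted p = 2.1e-06) and exceeded the control lines by -0.53 (95% interval -0.80 to -0.25, adjusted p = 0.027).

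**Figure D2:**
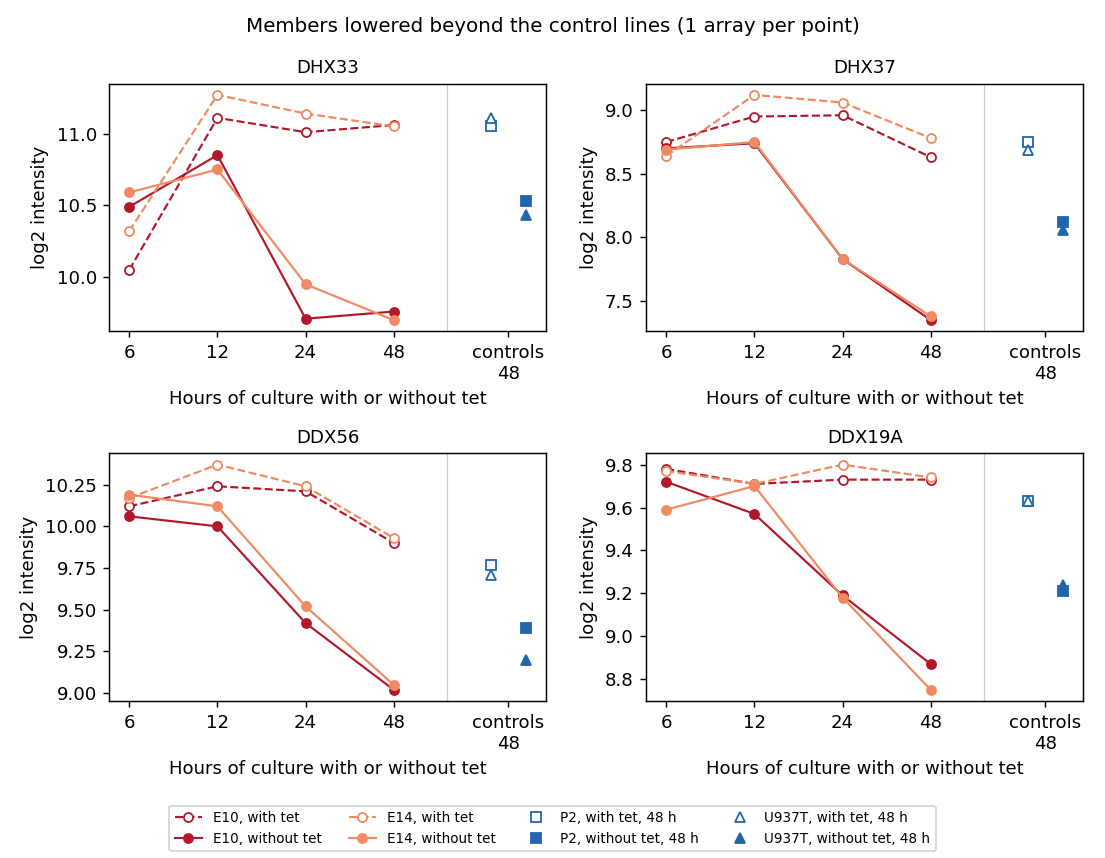
Log2 intensity (vertical axis) of DHX33, DHX37, DDX56 and DDX19A against hours of culture, 1 array per point, with open symbols for cultures with tet and filled symbols for cultures without. At 24 h all 4 are clearly lower without tet in both clones. DHX33, DHX37 and DDX56 are already somewhat lower without tet in both clones at 12 h, where none was called. The control lines at 48 h (right of each panel) show a smaller step, from 11.05 to 10.53 for DHX33 in P2.

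These 4 calls depended on the number of lines in the fit. Without E10 or without E14 none of the 4 passed (limma adjusted p 0.32 to 0.77), with differences of -0.77 to -0.43. Without P2 only DHX37 passed (adjusted p = 0.031), and without U937T only DHX37 and DHX33 (both adjusted p = 0.037). In a fit of the 48 h arrays alone, which had 2 residual degrees of freedom, none passed (adjusted p 0.068 to 0.22).

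DDX55 and DDX54, which act in the assembly of the large subunit, fell by 1.02 and 0.97 at 48 h in E10 and E14 and did not pass the test against the control lines. DDX55 was at 8.69 with and 7.91 without tet in E10 at 48 h, 9.0 and 7.74 in E14, 8.80 and 8.27 in P2, and 8.71 and 8.39 in U937T. Its change differed between the clones, with -0.78 in E10 and -1.26 in E14. DDX54 was at 8.93 and 8.04 in E10, 9.0 and 7.95 in E14, 8.91 and 8.49 in P2, and 9.0 and 8.41 in U937T. For both, each EVI1 clone without tet lay below each control line without tet. The differences from the control lines were -0.59 (95% interval -0.98 to -0.20, limma adjusted p = 0.082) and -0.46 (-0.80 to -0.13, adjusted p = 0.12).

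DDX51 and DDX31, a further pair of large subunit helicases, fell by 0.93 and 0.78 at 48 h in E10 and E14. DDX51 was at 8.32 with and 7.46 without tet in E10 at 48 h, 8.40 and 7.38 in E14, 8.19 and 7.77 in P2, and 8.32 and 7.68 in U937T. DDX31 was at 8.31 and 7.5 in E10, 8.19 and 7.44 in E14, 8.40 and 7.78 in P2, and 8.30 and 7.93 in U937T. Their differences from the control lines, -0.41 and -0.29, had 95% intervals that include 0. DDX49, DDX27 and DDX24 also fell in E10 and E14 at 48 h, by 0.52, 0.50 and 0.41.

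**Figure D3:**
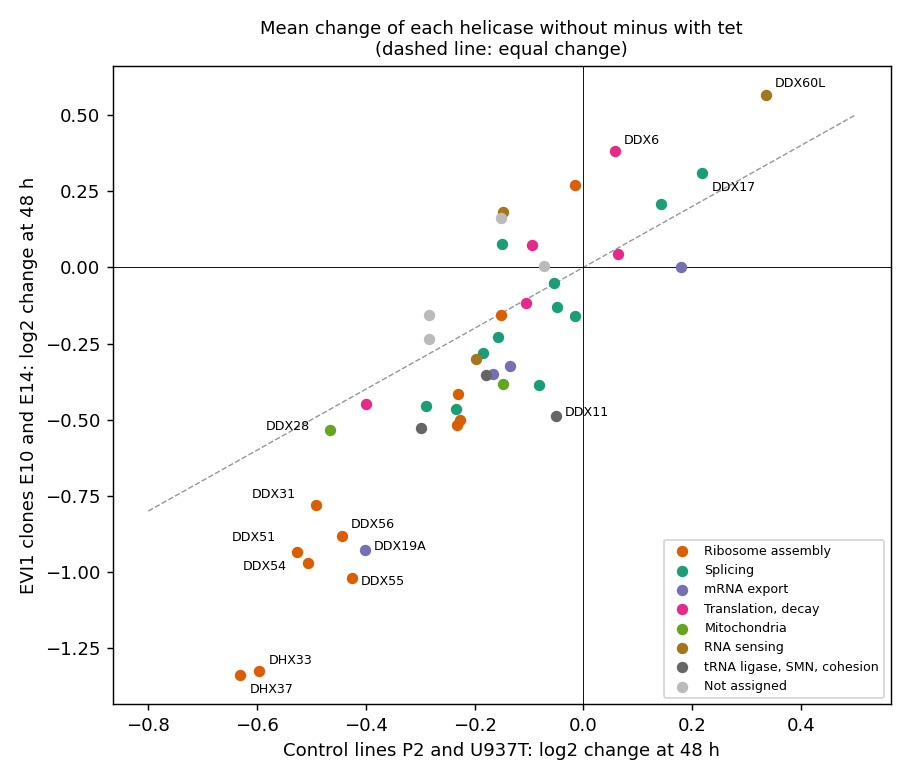
Mean log2 change at 48 h of the tested helicases except DDX3Y in the control lines P2 and U937T (horizontal axis) and in the EVI1 clones E10 and E14 (vertical axis), coloured by role, with the dashed line marking equal change. DHX33 and DHX37 lie near -0.6 on the control axis and -1.3 on the EVI1 axis, and most nucleolar helicases lie below the dashed line.

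Of the 11 splicing helicases, DHX35 (-0.47), DDX41 (-0.46) and DDX46 (-0.38) fell and DDX17 (0.31) rose in E10 and E14 at 48 h. The median change of the group was -0.16. Over all genes tested, 14.7% fell and 16% rose in this comparison, with a median of -0.04. The dim probe set of DHX35 without a cross-hybridization suffix was at 0.075 (limma adjusted p = 0.71), the opposite direction. None of the 11 differed from the control lines by the test. Among these, DDX46 acts in the formation of the early spliceosome, and the core spliceosomal helicases DDX23, DHX8, DHX15, DHX16 and DHX38 passed no test, with changes of -0.23 to 0.21. Of the 4 export helicases tested, DDX19A (-0.93), DDX19B (-0.35) and DDX39A (-0.32) fell at 48 h, beside the same 14.7% of all genes. DDX39A, which acts in the export of mRNA, was at 12.14 with and 11.84 without tet in E10 and at 12.10 and 11.76 in E14. The difference from the control lines was -0.19 for DDX39A (limma adjusted p = 0.48) and -0.18 for DDX19B (adjusted p = 0.66).

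Both mitochondrial helicases fell in E10 and E14 at 48 h, where 14.7% of all genes fell. DDX28 acts in the assembly of the mitochondrial ribosome, and it fell by 0.53 in E10 and E14 and by 0.47 in the control lines. DHX30, an RNA-binding helicase of the mitochondrial granules, fell by 0.38 in E10 and E14 and was at -0.15 in the control lines (limma adjusted p = 0.47). DDX1 of the tRNA ligase complex (-0.35), DDX20 of the SMN complex (-0.53) and DDX11, which acts in sister chromatid cohesion (-0.49), all fell in E10 and E14 at 48 h, and none of them passed the test in the control lines or for the difference. DDX11 has a near-identical pseudogene, DDX12P, so its value is uncertain.

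In the group of translation and mRNA decay, DHX34 (-0.45), a helicase of nonsense-mediated decay, fell at 48 h and DDX6 (0.38) rose. Of all genes, 14.7% fell and 16% rose. DHX34 was at -0.40 in the control lines (limma adjusted p = 0.054), and the difference from them was -0.05 (adjusted p = 0.93). DDX6 represses translation and activates the removal of the mRNA cap. It was at 10.18 with and 10.61 without tet in E10 at 48 h, 10.40 and 10.73 in E14, 10.33 and 10.52 in P2, and 10.49 and 10.41 in U937T. Both EVI1 clones without tet were above both control lines without tet. The difference in response was 0.32 (95% interval -0.08 to 0.73, limma adjusted p = 0.42). DDX3X, a helicase that supports translation initiation, was at 0.05 and its Y-linked copy DDX3Y at 0.06, and neither passed the test in any comparison. The mean log2 intensity of DDX3Y was 3.47, near the filter of 3, against 11.28 for DDX3X, so its value says little. The 5 other probe sets of DDX3X had the opposite sign at 48 h, and none of them was called.

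DDX5 and DDX17 are closely related proteins that act in splicing and as coactivators of transcription. DDX17 rose by 0.31 at 48 h in E10 and E14 (limma adjusted p = 0.018), with 11.50 and 11.78 in E10 and 11.44 and 11.78 in E14 with and without tet. It was at 11.46 and 11.80 in P2 and at 11.50 and 11.61 in U937T, so its level without tet was alike in P2 and the EVI1 clones. DDX5 changed by -0.13 (95% interval -0.33 to 0.07, limma adjusted p = 0.35), and the difference between these paralogs was not tested.

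DDX60L, a relative of an interferon-induced antiviral helicase, changed in opposite directions at 24 and 48 h. It was at 10.69 with and 10.26 without tet in E10 at 24 h, and at 10.84 and 10.25 in E14. At 48 h the pairs were 10.64 and 11.20 in E10, 10.81 and 11.38 in E14, 10.60 and 11.07 in P2, and 10.89 and 11.10 in U937T. The arrays without tet were thus below those with tet at 24 h and above them at 48 h in both clones. DDX60L fell by 0.51 at 24 h (limma adjusted p = 0.018) and rose by 0.57 at 48 h (adjusted p = 0.0051), and the response at 48 h exceeded that at 24 h by 1.07 (SE 0.19, adjusted p = 0.0069). The control lines were at 0.34 at 48 h (adjusted p = 0.14), and the difference from them was 0.23 (95% interval -0.18 to 0.64). The probe set of DDX60L without a cross-hybridization suffix was at -0.06 at 24 h and -0.37 at 48 h, which is the opposite direction at 48 h. The difference between the 48 h and the 24 h response did not pass without E10 (1.17, adjusted p = 0.41), without E14 (0.98, adjusted p = 0.61) or without the E14 arrays of 12 and 24 h (0.99, adjusted p = 0.052).

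Of the other RNA sensors, DHX58, a regulator of RIG-I-like receptors, was at 5.64 with and 5.83 without tet in E10 at 48 h and at 5.70 and 5.87 in E14, and did not pass the test. DHX9, a nuclear helicase that also binds viral RNA, fell by 0.30 at 48 h. It was at -0.20 in the control lines (limma adjusted p = 0.27), and the difference from them was -0.10 (adjusted p = 0.8). The 48 h response was also compared with the 24 h response. DDX60L was the 1 helicase called higher and none was called lower in limma, against 2.07% and 1.63% of all genes. At an unadjusted p under 0.05 in limma, 1 helicase was lower, beside 1410 of 17860 genes.

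**Figure D4:**
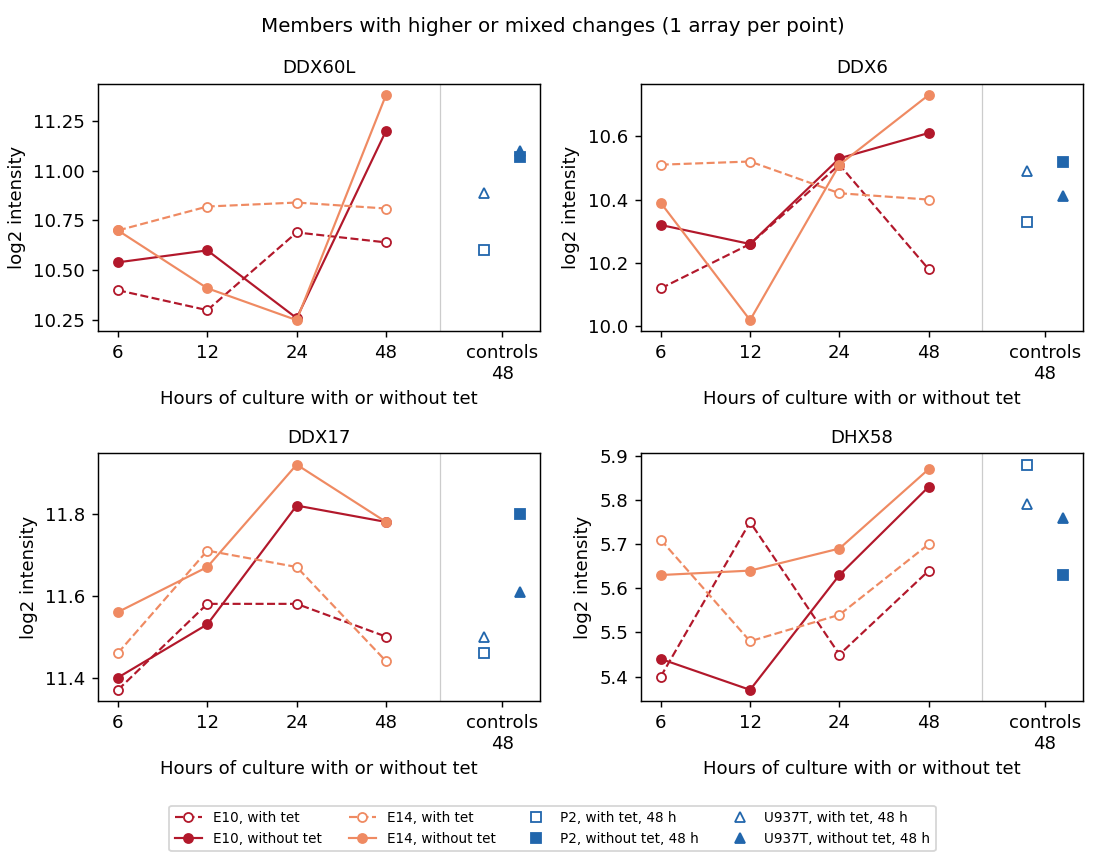
Log2 intensity (vertical axis) of DDX60L, DDX6, DDX17 and DHX58 against hours of culture, 1 array per point, with open symbols for cultures with tet and filled symbols for cultures without. DDX60L without tet lies at 10.25 to 10.26 at 24 h and at 11.20 to 11.38 at 48 h, and the scale of each panel differs.

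The early time points held few calls. No helicase was called at 6 or 12 h in limma. At an unadjusted p under 0.05 in limma, none was lower and 3 were higher at 6 h, and 8 were lower and none higher at 12 h. Of the 17860 genes tested, 310 were lower and 276 higher at 6 h by that threshold, and 678 lower and 456 higher at 12 h. Over all genes 0% were called lower and 0% higher at 6 h, and 0.0112% lower and 0.0168% higher at 12 h. At 12 h the change was below 0 in 37 of 45 helicases and in 9280 of 17860 genes tested. The median was -0.10 for the helicases and -0.01 for all genes. DHX33 was at -0.39 at 12 h (limma adjusted p = 0.45).

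Cultures with tet also drifted. Between 6 and 48 h with tet in E10 and E14, DHX33 rose 1.83-fold (limma adjusted p = 0.00056) and DDX59 rose 1.99-fold (adjusted p = 0.0069), and no helicase fell, with 4 lower at an unadjusted p under 0.05. Over all genes, 3.1% were called higher and 4.07% lower. At an unadjusted p under 0.05 in limma, 2344 of 17860 genes were lower. DDX59 was at 7.32 in E10 and 7.70 in E14 after 6 h with tet and at 8.51 in both after 48 h. The 3′ to 5′ difference of the actin and GAPDH control probes, a measure of RNA integrity, was 0.19 and 0.45 at 6 h and 0.66 and 0.74 at 48 h in these cultures, and with it as a covariate the increases were 0.77 (adjusted p = 0.0024) and 0.73 (adjusted p = 0.017) on the log2 scale. Without E10, DHX33 was at 0.74 (adjusted p = 0.22) and DDX59 at 0.81 (adjusted p = 0.21), and without E14 DHX33 was at 1.00 (adjusted p = 0.07). The probe set of DDX59 without a cross-hybridization suffix was at -0.23 between 6 and 48 h with tet (adjusted p = 0.32), the opposite direction. On the E14 arrays at 24 h that difference reached 1.52 with and 1.40 without tet, the highest among the 20 arrays. Without the E14 arrays at 12 and 24 h, 6 helicases rather than 15 were called lower at 24 h.

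A change of at least 2-fold in both E10 and E14 at 24 and at 48 h, without a test, was reached by DHX33 and DHX37 alone among the probe sets that stood for the helicases. The share of all genes that reached such a change was not computed, so no background stands beside this count. With any probe set of a gene allowed, DDX31 was the third. Its dimmer probe set fell by 1.45 at 48 h in E10 and E14 and exceeded the control lines by -0.92 (limma adjusted p = 0.005 in a fit over all probe sets).

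Of the 23 helicases lowered at 48 h, 18 had a further probe set, and in 12 of these at least 1 of them was called lower too, with none called higher. The additional probe sets of DHX33 and DHX37 fell by 1.22 and 1.11 at 48 h, and exceeded the control lines by -0.57 (limma adjusted p = 0.044 over all probe sets) and -0.60 (adjusted p = 0.079). DDX19A had a probe set that fell by 0.75 and exceeded the control lines by -0.36 (adjusted p = 0.39), and a dim one at -0.27 that passed no test. Both bright probe sets of DDX19A carry a suffix that marks possible matching to related transcripts, and DDX19B is nearly identical, so the split between these genes is uncertain. The dim probe set of DDX56 was at -0.22 at 48 h and passed no test.

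**Figure D5:**
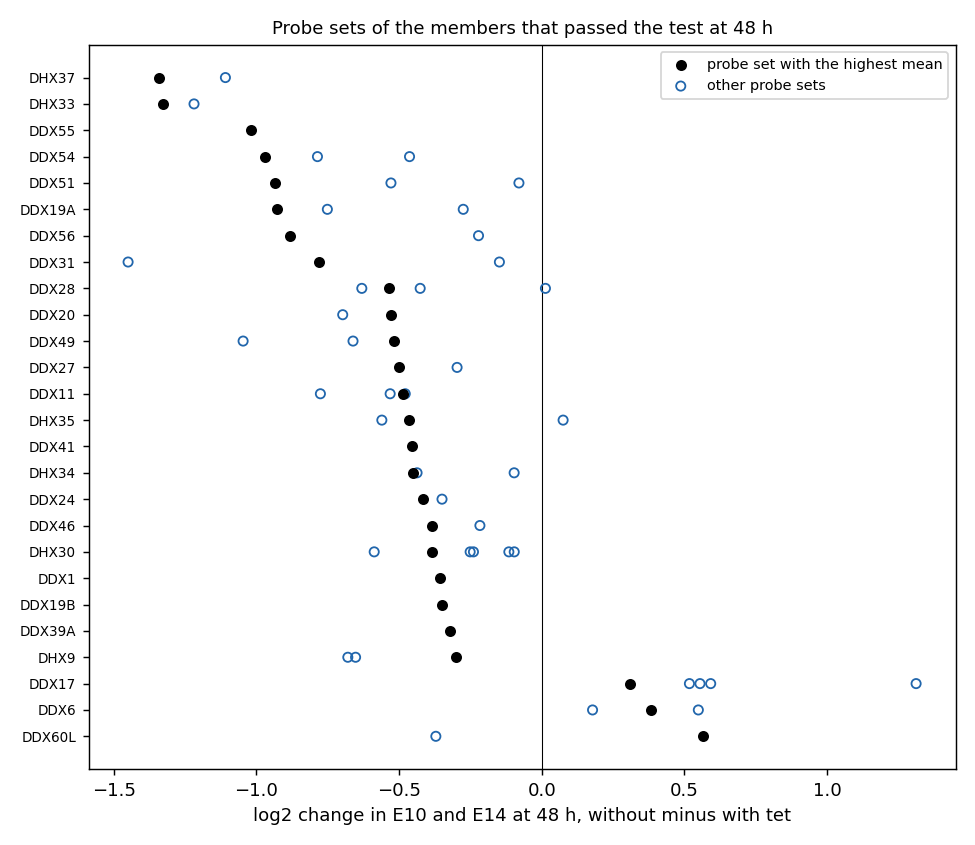
Log2 change at 48 h in E10 and E14 (horizontal axis, mean of 2 clones) for every tested probe set of the 26 helicases called at 48 h, with filled symbols for the probe set that stood for the gene and open symbols for the others. DHX33 and DHX37 have both probe sets below -1, whereas the probe sets of DDX60L lie on opposite sides of 0.

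Genes that work with the helicases were read from 2 lists. The lists held older symbols beside current ones, C14orf166 beside RTRAF and SKIV2L2 beside MTREX, so they name fewer genes than symbols. Of 42 symbols of protein cofactors, 38 were tested. Of these, 11 fell at 24 h and 16 at 48 h in E10 and E14, and 2 rose at 48 h. Over all genes, 9.16% fell at 24 h, and 14.7% fell and 16% rose at 48 h. In the control lines 6 fell, beside 5.3% of all genes, and 5 fell further in E10 and E14 than in the control lines, beside 3.03%. Of these 5, UTP14A (-0.89, limma adjusted p = 0.0013) is the partner that activates DHX37. GPATCH4 (-0.88, adjusted p = 0.0015) and NKRF (-0.60, adjusted p = 0.033) are G-patch proteins. The others were GEMIN4 of the SMN complex (-0.84, adjusted p = 0.0062) and FAM98A (-0.53, adjusted p = 0.027). The median change of the cofactors at 48 h was -0.22. Of 14 symbols of helicases of the same superfamily with other names, 8 were tested. At 48 h SUPV3L1 (-0.99) and MTREX (-0.33) fell and IFIH1 (1.07) rose. SUPV3L1 unwinds mitochondrial RNA, MTREX feeds RNA to the nuclear exosome, and IFIH1 is a sensor of viral RNA. IFIH1 exceeded the control lines by 0.82 (adjusted p = 0.045).

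The promoters of the helicases were searched in the RefSeq windows (GRCh38.p14) from 250 bases before to 50 bases after each gene start, with 41 of the 45 tested members matched. DHX33, DDX49, DDX52 and DHX58 are not among the 41. Neither strand of any of the 41 held GACAAGATA or GAAGATGAG, letters taken from known recognition sequences of the first and second zinc finger domains of EVI1, and these occurred in 0.1% and 0.35% of all 35116 promoters. The absence covers only these letters in these windows. The E-box CACGTG, which reads the same on both strands, occurred in 9 of 41 members (22.0%) and in 7.26% of all promoters. The ETS motif CCGGAAG, on either strand, occurred in 21 of 41 members (51.2%) and in 10.26% of all promoters. For both motifs a member counted when any window of its symbol held the letters. The share of all promoters was instead taken per window, so the shares of members and of all promoters are not like measures. By the count of members, the ETS motif was found in 11 of 21 helicases lowered at 48 h and in 10 of the other 20, and the E-box in 5 of 21 and 4 of 20. The 4 windows of 30 bases below were chosen among the lowered helicases as examples of both motifs, in capitals, and are written on the strand of the gene.
DDX54, E-box, chr12:113185522-113185551, minus strand: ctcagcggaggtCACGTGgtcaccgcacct
DDX31, E-box, chr9:132669988-132670017, minus strand: cctcgcgcgtccCACGTGgggtcccgggcc
DDX56, ETS, chr7:44574009-44574038, minus strand: ccgtccgagtaCCGGAAGcctaggccgcca
DDX19A, ETS on the opposite strand, chr16:70346873-70346902, plus strand: gctcaccgccgCTTCCGGtccgcgtgaggt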

How the data were processed

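The authors hybridized RNA from 4 lines to 20 Affymetrix HG-U133 Plus 2.0 arrays and deposited log2 intensities from Robust Multi-array Analysis (background correction, then quantile normalization, with median polish over the probes), a scaling that hides any change shared by most genes. Array medians lay between 5.25 and 5.35, and no further normalization was applied. Of 54675 probe sets, 41097 had 1 symbol in the platform annotation. The filter asked each control line (48 h) and each EVI1 clone (24 and 48 h) for a mean log2 intensity of at least 3 over both cultures. The probe set with the highest mean over the 20 arrays stood for its gene, which gave 17860 genes. They were fitted together in limma 3.58.1 (R 4.3.3) with 10 groups and the line as a block (8 residual degrees of freedom), and p-values were adjusted over all genes by the Benjamini-Hochberg method. The script was tested on simulated data. The same clone gave each pair with and without tet, so pairing follows from the line. The number of arrays limits the precision.

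The members and lists were chosen with earlier results of these data known. Named were up to 8 called members per direction for the EVI1 clones beyond the control lines, up to 4 for the control lines, up to 3 at each of 6, 12 and 24 h, and 4 paralog pairs. Other members, cofactors and the promoter motifs named were chosen after their values were seen. Alternatives concerned the filter, the probe set, centring, the variance model, the block, the arrays fitted, the 3′ to 5′ difference, a 2-fold minimum and leaving out each line.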

Additional observations from a re-analysis of the deposited data

Results flagged for a closer look

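For 4 helicases the response to tet withdrawal at 48 h differed between the EVI1 clones E10 and E14 and the control lines P2 and U937T by a test of the difference in limma. The difference was -0.73 for DHX33, with changes of -1.33 in the EVI1 clones and -0.60 in the control lines (adjusted p = 0.011). It was -0.71 for DHX37, with -1.34 and -0.63 (adjusted p = 0.0052), -0.53 for DDX19A, with -0.93 and -0.40 (adjusted p = 0.027), and -0.44 for DDX56, with -0.88 and -0.44 (adjusted p = 0.046). For DDX60L the response of E10 and E14 differed between time points, by 1.07 at 48 h over 24 h (limma adjusted p = 0.0069).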

How the results depend on the processing

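The 4 helicases lower in the EVI1 clones beyond the control lines became 2 with probe sets that lack a cross-hybridization suffix, 0 in the 48 h arrays alone, 0 with a 2-fold minimum, 2 without the 12 and 24 h arrays of E14, and 0 to 2 when 1 line was left out (0 without E10 or E14, 1 without P2, 2 without U937T). Without the replicate block the count was 3, since DDX56 was lost (limma adjusted p = 0.083). The 23 lower at 48 h became 3 with a 2-fold minimum and 8 to 23 when a line was left out, and the 3 higher became 1 in the 48 h arrays alone, 0 with a 2-fold minimum and 0 to 3 without a line. The 15 lower at 24 h became 6 without the E14 arrays at 12 and 24 h, 2 with a 2-fold minimum and 2 to 15 without a line, and 1 was higher at 24 h with an intensity trend and robust variance. The 10 lower in the control lines became 6 with the probe set of largest SD, 6 without suffix, 2 in the 48 h arrays alone, 0 with a 2-fold minimum and 1 to 3 without a line. For the early, late and drift comparisons the alternatives were added after seeing the data. The 1 helicase with a higher response at 48 than at 24 h became 0 without suffix, 0 without the 12 and 24 h arrays of E14 and 0 to 1 without a line. The 2 that rose with tet became 0 with a 2-fold minimum and 0 to 3 without a line, and the 0 that fell with tet became 1 with a mean of at least 5, the largest SD, no suffix, or an intensity trend. With probe sets without suffix 5 changes in E10 and E14 reversed, to 0.05 for DDX19A at 24 h, -0.37 for DDX60L at 48 h, 0.075 for DHX35 at 48 h, -0.313 for DDX60L at 48 over 24 h and -0.234 for DDX59 with tet, and the cause was not tested. A fit without E10 or E14 has 1 residual degree of freedom, so a lost call there says little about stability. One without P2 or U937T keeps 7 of the 8 residual degrees of freedom. It rests the control change on 1 line, which lowers the precision of that change. Of 58 calls of single helicases, 53 were kept without the replicate block, 51 with centred arrays, 58 with an intensity trend or with a mean of at least 5, 39 with the largest SD, 42 without suffix and 41 without the 12 and 24 h arrays of E14, and 22 of 40 were kept in the 48 h arrays alone.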
